A study of Mus musculus with 4 samples.

Results

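Antiviral interferon-stimulated genes were followed in splenic dendritic cells (DC) of wild-type (WT) and MARCO-/- mice cultured with or without lipopolysaccharide (LPS). The list held 39 interferon-stimulated genes, many of whose products act on viral RNA, DNA, protein synthesis or particle release. It was chosen with earlier results of these data known, so its counts are not those of a list drawn blind to them. Other interferon-stimulated genes, of which 2 were lower with LPS in either genotype, are given at the end. A gene was given 1 value, from the brightest probe set that carried its symbol and no other, and 36 of the 39 genes had such a probe set, among 17097 genes on the array. Oas1a, Isg15 and Ifi44 had none and have no value here.

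MARCO, the macrophage receptor with collagenous structure, is a class A scavenger receptor that binds bacterial surfaces and modified lipoproteins, and the arrays were made to compare DC with and without it, before and after activation through a Toll-like receptor. DC were taken from the spleens of WT mice and of mice lacking Marco, aged 8 to 12 weeks, on the background that the labels spell C56BL/6, and were cultured overnight in PBS or in LPS at 100 ng/ml. Cells of 5 to 6 mice were combined into a pool and 3 pools were made per genotype, and which pool or pools an array came from was not stated. There were 4 conditions, either genotype with PBS or with LPS, and each had 1 array. The cells were selected on CD11c, an integrin that other splenic cells also carry, and the labels describe them as positive for CD11c, CD80, CD86 and MHC class II.

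With 1 array per condition there were no replicates, so no difference below has a test, an error or a p-value. A gene is called higher or lower where the linear intensities of 2 arrays differed by at least 2-fold, and the share of all 17097 genes past that mark is given beside the counts. In bulk RNA of this kind, fewer cells of a type and less RNA per cell cannot be told apart. Each intensity is comparable between arrays for the same gene and not between genes, since probe sets differ in brightness.

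Cells that sense bacterial or viral products secrete type I interferon, which binds the receptor made of Ifnar1 and Ifnar2 on the same and on neighbouring cells. The receptor's kinases, Jak1 and Tyk2, act on the factor ISGF3, which holds STAT2 and IRF9 and binds interferon-stimulated response elements in gene promoters. In DC, LPS reaches this route through Tlr4 and its adaptor TRIF, the product of Ticam1, which lead through the kinase Tbk1 and the factor Irf3 to interferon beta.

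The core letters of the response element are printed below in the promoters of 5 genes that passed 4-fold with LPS in both genotypes and were picked for holding them, to show the sequence. Ifit2, Oasl1, Oasl2, Herc6, Cmpk2 and Xaf1 also passed 4-fold in both and had no match in their windows. The sequences are the 250 bases before the RefSeq start site on mouse build GRCm38.p6, written 5′ to 3′ along the gene. Capitals mark each match to GAAA, any 2 bases and GAAA again, or to its reverse complement, TTTC, any 2 bases and TTTC. Ifit1 lies at chr19:34640639-34640888 (plus strand), Ifit3 at chr19:34583279-34583528 (plus strand), Oas1g at chr5:120887614-120887863 (minus strand), Oas3 at chr5:120777660-120777909 (minus strand) and Rsad2 at chr12:26456453-26456702 (minus strand).
Ifit1: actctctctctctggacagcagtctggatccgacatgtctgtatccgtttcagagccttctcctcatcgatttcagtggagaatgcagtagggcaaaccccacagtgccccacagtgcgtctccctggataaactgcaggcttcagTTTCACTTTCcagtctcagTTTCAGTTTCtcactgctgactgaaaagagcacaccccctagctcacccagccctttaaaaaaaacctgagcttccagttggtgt
Ifit3: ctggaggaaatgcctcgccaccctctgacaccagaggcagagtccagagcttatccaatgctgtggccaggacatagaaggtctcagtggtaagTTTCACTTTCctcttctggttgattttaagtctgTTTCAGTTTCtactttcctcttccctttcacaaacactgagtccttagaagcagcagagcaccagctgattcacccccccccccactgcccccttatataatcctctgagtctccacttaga
Oas1g: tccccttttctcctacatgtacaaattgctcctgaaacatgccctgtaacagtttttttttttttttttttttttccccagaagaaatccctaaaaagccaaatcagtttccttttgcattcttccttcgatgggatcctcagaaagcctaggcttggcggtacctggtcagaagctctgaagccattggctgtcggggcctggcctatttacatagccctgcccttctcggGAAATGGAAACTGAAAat
Oas3: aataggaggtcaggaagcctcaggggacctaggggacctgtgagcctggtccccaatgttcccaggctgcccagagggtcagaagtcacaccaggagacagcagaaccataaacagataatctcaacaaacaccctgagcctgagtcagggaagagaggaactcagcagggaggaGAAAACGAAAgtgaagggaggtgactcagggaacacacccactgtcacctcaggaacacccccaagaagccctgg
Rsad2: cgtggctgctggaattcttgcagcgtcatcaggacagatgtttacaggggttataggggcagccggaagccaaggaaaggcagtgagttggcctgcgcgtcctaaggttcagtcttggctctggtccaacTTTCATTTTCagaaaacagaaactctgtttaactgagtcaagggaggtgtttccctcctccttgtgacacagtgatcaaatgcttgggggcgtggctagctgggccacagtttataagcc

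Ifit1 and Ifit3 each held a pair of separate matches, Oas1g a pair of overlapping ones just before its start site, and Oas3 and Rsad2 a single one. Over windows of 250 bases before to 50 bases after a start, which RefSeq gave for 28 of the 39 genes, 11 (39.3%) held this pattern on either strand, against 3.99% of 27025 genes with a window. These were Eif2ak2, Ifih1, Ifit1, Ifit3, Isg15, Oas1a, Oas1g, Oas3, Rsad2, Trim21 and Trim30a. The letters of a gamma-activated site, TTCNNNGAA, were found in 7 (25%), against 9.55% of all genes, and a kappa B pattern (GGG, any 2 bases, TTTCC, on either strand) in 0 of 28 against 1.89%. A match is a run of letters in the window, and no binding was measured.

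Both LPS arrays were brighter than both PBS arrays for 36 of the 36 measured genes, against 26.9% of all genes. With LPS, 28 of the 36 were called higher in WT DC, against a background of 6.2%, and 33 of the 36 in MARCO-/- DC, against 6.32%. None was lower in either genotype, where 8.31% of all genes were lower in WT and 5.98% in MARCO-/-. The log2 ratios ran from 0.29 to 6.27 in WT with a median of 1.84, where the median of all genes was 0.05, and from 0.55 to 5.38 in MARCO-/- with a median of 2.33, where that of all genes was 0.00. Past 4-fold were 17 genes in WT, against 1.56% of all genes, and 19 in MARCO-/-, against 1.85%.

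**Figure D1:**
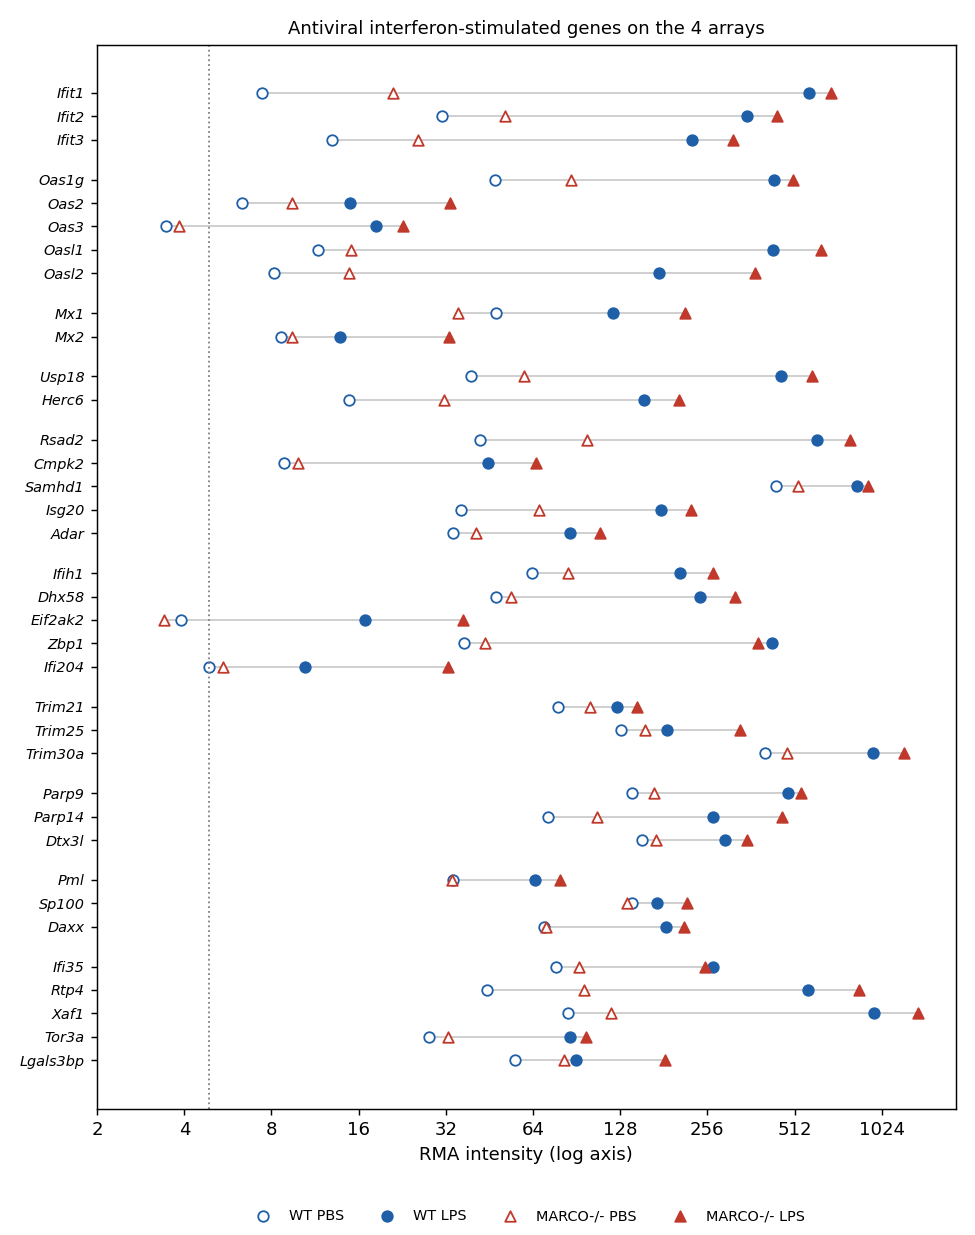
RMA intensity (log axis) of the 36 measured genes on the 4 arrays, grouped by role, with open marks for PBS, filled marks for LPS, circles for WT and triangles for MARCO-/-. The dotted line is the median of all intensities, 4.87, and in every line of the plot both filled marks lie to the right of both open marks.

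The plot of the 4 arrays shows a recurrent order. For 30 of the 36 genes the intensity was lowest with WT PBS, then MARCO-/- PBS, then WT LPS, and highest with MARCO-/- LPS, against 6.89% of all genes. This order requires both LPS arrays to lie above both PBS arrays, as held for all 36 and for 4602 of the 17097 genes. Of those 4602 genes, 1178 had the order, so much of the contrast with 6.89% is the LPS response itself. The exceptions were Mx1, Eif2ak2, Pml and Sp100, in which MARCO-/- PBS was the lowest, and Zbp1 and Ifi35, in which WT LPS was the highest.

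The IFIT proteins bind foreign RNA and block its translation, and their 3 genes lie together on chromosome 19. Ifit1, which recognises RNA caps that lack host methylation, read 7.43 with WT PBS, 574 with WT LPS, 21.0 with MARCO-/- PBS and 683 with MARCO-/- LPS. Its LPS response was thus 77.3-fold in WT and 32.5-fold in MARCO-/-, the widest gap among the 36 genes in which WT had the larger ratio. The LPS arrays were close to each other, at a MARCO-/- over WT ratio of 1.19, and the PBS arrays were 2.83-fold apart. Ifit3, its close relative, read 12.9 with WT PBS, 226 with WT LPS, 25.7 with MARCO-/- PBS and 313 with MARCO-/- LPS, which is 17.5-fold with LPS in WT and 12.2-fold in MARCO-/-. Ifit2 read 31.1, 352, 51.2 and 447 in the same order, or 11.3-fold and 8.73-fold. All 3 genes had the larger LPS ratio in WT and the higher PBS level in MARCO-/-, and in Ifit3 the PBS arrays were 1.99-fold apart, just under the 2-fold mark.

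The oligoadenylate synthetases sense double-stranded RNA and make the messenger that activates RNase L, which cuts viral and cellular RNA. Their genes and those of the related Oasl proteins lie on chromosome 5. Oas1g rose from 47.2 to 435 with LPS in WT (9.22-fold) and from 86.7 to 508 in MARCO-/- (5.85-fold). Oas3, whose PBS values lay below the median of all intensities, rose from 3.47 to 18.3 in WT (5.28-fold) and from 3.84 to 22.8 in MARCO-/- (5.94-fold). Oas2 was called between genotypes on the LPS arrays only, with 6.32 in WT PBS and 15.0 in WT LPS against 9.38 in MARCO-/- PBS and 33.0 in MARCO-/- LPS. Its genotype ratio was 1.49 with PBS and 2.21-fold with LPS.

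Oasl1, which represses translation of Irf7 mRNA, had the largest LPS response in MARCO-/- DC, from 15.1 to 630.4 (41.7-fold), and rose from 11.6 to 429.9 in WT (37.1-fold). Oasl2, a relative with a ubiquitin-like tail, read 8.15 with WT PBS, 174 with WT LPS, 14.8 with MARCO-/- PBS and 375 with MARCO-/- LPS. MARCO-/- was the higher genotype on both pairs of arrays, at a ratio of 1.82 with PBS and 2.15-fold with LPS. All 5 measured genes of the family rose with LPS in both genotypes, 4 of them past 4-fold in each.

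The Mx proteins are dynamin-like GTPases that trap viral nucleocapsids, Mx1 in the nucleus and Mx2 in the cytoplasm of mouse cells that make them. Both genes lie on chromosome 16. Only mRNA was measured, so whether these DC made a working Mx protein is not known here. Mx1 read 47.7 with WT PBS, 121 with WT LPS, 35.3 with MARCO-/- PBS and 215 with MARCO-/- LPS, or 2.53-fold with LPS in WT and 6.09-fold in MARCO-/-. Mx2 read 8.60, 13.8, 9.44 and 32.8 in the same order, with a ratio of 1.60 in WT and 3.48-fold in MARCO-/-. Both had an LPS log2 ratio larger in MARCO-/- by more than 1, by 1.27 for Mx1 and 1.12 for Mx2, though Mx2 came under 1 with quantile normalization and with cyclic loess. In Mx2 the LPS arrays were 2.39-fold apart and the PBS arrays at a ratio of 1.10, whereas in Mx1 the genotype order turned, WT being the higher with PBS and MARCO-/- with LPS.

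ISG15 is a ubiquitin-like protein joined to other proteins by Herc6 in the mouse and removed by Usp18, which also damps the interferon receptor. Isg15 itself has no value here. Usp18 rose from 39.1 to 460.1 in WT (11.8-fold) and from 59.4 to 590.1 in MARCO-/- (9.94-fold). Herc6 read 14.8 with WT PBS, 155 with WT LPS, 31.5 with MARCO-/- PBS and 205 with MARCO-/- LPS, or 10.5-fold and 6.51-fold with LPS. The PBS arrays were 2.13-fold apart in Herc6 with MARCO-/- the higher, and the LPS arrays were at a ratio of 1.32.

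Among the enzymes, Rsad2 (viperin) makes a chain-terminating ribonucleotide and Cmpk2, its neighbour on chromosome 12, supplies its substrate. Rsad2 read 41.9 with WT PBS, 613 with WT LPS, 98.0 with MARCO-/- PBS and 794 with MARCO-/- LPS, or 14.6-fold with LPS in WT and 8.10-fold in MARCO-/-. The PBS arrays were 2.34-fold apart with MARCO-/- the higher, though the log2 ratio of its other 2 probe sets was 0.66 and 0.78, under the mark. Their LPS responses were nearly equal between genotypes in one, 8.47-fold in WT and 8.43-fold in MARCO-/-, and 13.3-fold and 11.4-fold in the other. Cmpk2 rose from 8.87 to 44.6 in WT (5.03-fold) and from 9.89 to 65.7 in MARCO-/- (6.64-fold), and its PBS arrays were at a ratio of 1.12. Its other, dimmer probe set had the larger LPS ratio in WT, 2.46-fold against 1.76 in MARCO-/-, so the order of the genotypes depends on the probe set.

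Isg20, an exonuclease that degrades RNA, read 36.0 with WT PBS, 177 with WT LPS, 67.2 with MARCO-/- PBS and 224 with MARCO-/- LPS, or 4.91-fold with LPS in WT and 3.33-fold in MARCO-/-. Samhd1, which depletes the nucleotide pool that viral DNA synthesis needs, was bright on every array and stayed under 2-fold with LPS. It read 443 and 844 in WT (ratio 1.91) and 525 and 920.5 in MARCO-/- (ratio 1.75). Adar, which edits adenosine in double-stranded RNA, rose 2.54-fold in WT and 2.69-fold in MARCO-/-. Its other probe sets had a log2 ratio of 0.84 and 0.79 in WT, under the mark, and of 1.29 and 1.63 in MARCO-/-.

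The sensors in the list detect RNA or DNA inside the cell, and all 5 rose with LPS in both genotypes. Eif2ak2 encodes PKR, which binds double-stranded RNA and halts translation, and read 3.90 with WT PBS, 16.9 with WT LPS, 3.41 with MARCO-/- PBS and 36.6 with MARCO-/- LPS. It rose 4.33-fold in WT and 10.7-fold in MARCO-/-, and the LPS arrays were 2.17-fold apart. Ifi204, a DNA-binding protein of the interferon-inducible p200 family, read 4.87, 10.4, 5.44 and 32.7 in the same order, or 2.14-fold and 6.00-fold with LPS. Its LPS arrays were 3.14-fold apart, the largest genotype ratio of the 36 genes, while its PBS arrays were at a ratio of 1.12.

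Eif2ak2 and Ifi204 both started near the median of all intensities, so their PBS values are close to background signal. The other sensors stayed under 2-fold between genotypes. Dhx58 (LGP2), a regulator of RIG-I-like helicases, rose from 47.7 to 241 in WT (5.05-fold) and from 53.6 to 319.9 in MARCO-/- (5.97-fold). Zbp1, a sensor of Z-form nucleic acid, rose from 37.1 to 428 in WT (11.5-fold) and from 43.5 to 384 in MARCO-/- (8.83-fold). The other, dimmer probe set of Zbp1 rose 22.4-fold in WT and 18.4-fold in MARCO-/-. Ifih1, the RNA helicase MDA5, rose 3.24-fold and 3.15-fold.

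TRIM proteins are ubiquitin ligases that act on viral capsids and on sensors, and their responses were small. Trim21, an antibody receptor of the cytoplasm, read 78.1 with WT PBS, 125 with WT LPS, 100.4 with MARCO-/- PBS and 147 with MARCO-/- LPS, at LPS ratios of 1.60 and 1.46. Trim25, which ubiquitinates RIG-I, was called in MARCO-/- (2.13-fold) and had a ratio of 1.45 in WT. Trim30a rose 2.36-fold in WT and 2.54-fold in MARCO-/-.

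Parp9, Parp14 and Dtx3l, an ADP-ribosylation group whose Parp9 and Dtx3l proteins form a complex, lie with the Mx genes on chromosome 16. Parp14 read 72.0 with WT PBS, 267 with WT LPS, 107 with MARCO-/- PBS and 463 with MARCO-/- LPS, or 3.71-fold with LPS in WT and 4.34-fold in MARCO-/-. The other, dimmer probe set of Parp14 had the larger LPS ratio in WT, 6.97-fold against 5.27-fold in MARCO-/-. The order of the genotypes thus depends on the probe set. Parp9 rose 3.47-fold and 3.21-fold. Dtx3l had a ratio of 1.93 in WT and 2.07-fold in MARCO-/-, on either side of the mark.

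Of the nuclear body proteins, which repress incoming viral DNA, only Daxx was called in both genotypes, at 2.65-fold and 2.99-fold. Pml, the scaffold of these bodies, had a ratio of 1.93 in WT and was 2.35-fold higher with LPS in MARCO-/-. Sp100 read 141 with WT PBS, 172 with WT LPS, 135 with MARCO-/- PBS and 217 with MARCO-/- LPS, the smallest LPS ratio of the list in WT, at 1.22, beside 1.61 in MARCO-/-. Its other probe set was 2.36-fold higher with LPS in MARCO-/-.

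The remaining genes held some of the brightest responses. Xaf1, a pro-apoptotic partner of XIAP, rose from 84.3 to 959.7 in WT and from 119 to 1364 in MARCO-/-, 11.4-fold in both. Rtp4, a chaperone of G protein-coupled receptors that also binds viral RNA, read 44.4 with WT PBS, 569 with WT LPS, 96.3 with MARCO-/- PBS and 855 with MARCO-/- LPS. It rose 12.8-fold in WT and 8.89-fold in MARCO-/-, and its PBS arrays were 2.17-fold apart, on the brightest of its probe sets, while another one stayed near the median of all intensities.

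Lgals3bp, a secreted glycoprotein that binds galectins, read 55.5 with WT PBS, 90.1 with WT LPS, 82.2 with MARCO-/- PBS and 183 with MARCO-/- LPS. The LPS ratio was 1.62 in WT and 2.22-fold in MARCO-/-, and the LPS arrays were 2.03-fold apart. Ifi35 rose 3.47-fold in WT and 2.72-fold in MARCO-/-, and Tor3a, an ATPase of the endoplasmic reticulum, rose by 1.62 and 1.58 on the log2 scale.

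**Figure D2:**
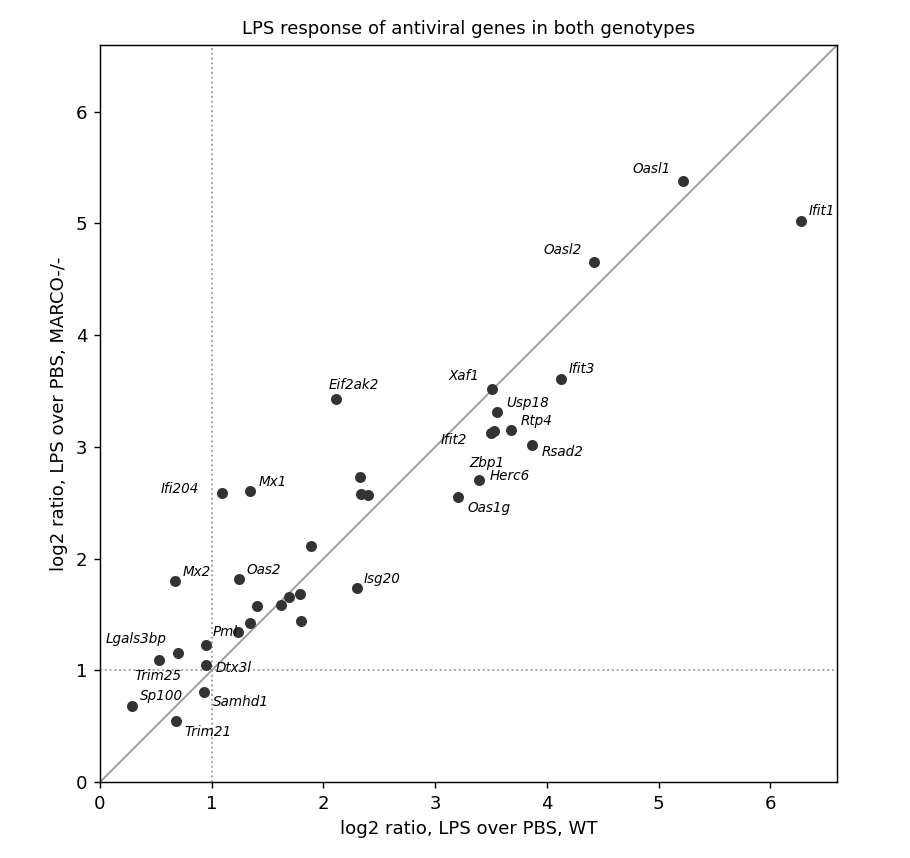
Log2 ratio of LPS over PBS in WT (x axis) and in MARCO-/- (y axis) for the 36 measured genes, 1 point per gene, with the line of equal ratios and dotted lines at 2-fold. Points above the line, such as Ifi204, Eif2ak2, Mx1 and Mx2, had the larger ratio in MARCO-/-, and Ifit1, at 6.27 and 5.02, lies farthest below it.

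The size of the response was ordered alike in both genotypes, as the plot of the LPS ratios shows. Across the 36 genes, which share the arrays and are not independent, Pearson's r of the log2 ratios was 0.91 and Spearman's rho 0.88, beside 0.74 and 0.53 across all 17097 genes. The ratio was larger in MARCO-/- for 20 genes, against 48.1% of all genes, and smaller for 16, with a median difference of 0.09. This turned to 16 larger and 20 smaller with quantile normalization and with cyclic loess, with medians of -0.05 and -0.03. It was larger by at least 1 on the log2 scale in 4 (Mx1, Mx2, Eif2ak2 and Ifi204), against 3.4% of all genes, and smaller by at least 1 in Ifit1 alone, against 2.53%. Mx2 left the 4 under quantile normalization and cyclic loess, and with an offset of 16 Mx1 alone remained and Ifit1 no longer differed by 1. Of all genes, 6.2% were called higher with LPS in WT and 6.32% in MARCO-/-, and the share called in both or in MARCO-/- alone was not counted. Calls were shared by both genotypes in 28 genes, and in 5 (Mx2, Trim25, Dtx3l, Pml and Lgals3bp) stood in MARCO-/- alone, where the WT ratio was between 1.45 and 1.93. Of these, Pml was also called in WT under quantile normalization, cyclic loess and the averaging of probe sets, and Dtx3l lost its call in MARCO-/- under both normalizations and the offset. In Samhd1, Trim21 and Sp100 neither genotype reached 2-fold on the brightest probe set.

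Between genotypes the same genes were compared at rest and after LPS. With PBS, 4 of the 36 were higher in MARCO-/- DC (Ifit1, Herc6, Rsad2 and Rtp4), against a background of 0.76%, and 0 were lower, against 0.287%. The log2 ratios ran from -0.43 in Mx1 upwards, Ifit1 being the highest at 2.83-fold, with a median of 0.27, where the median of all genes was 0.01, and 32 of 36 were above 0, against 51.5% of all genes. With LPS, 6 were higher (Oas2, Oasl2, Mx2, Eif2ak2, Ifi204 and Lgals3bp), against 2.09%, and 0 were lower, against 1.31%. The ratios ran from -0.15 in Zbp1 to 1.65 in Ifi204 with a median of 0.37, where that of all genes was 0.00, and 34 of 36 were above 0, against 48.5%. Genes whose highest value exceeded the median of all intensities, 10955 in number, had a median of 0.10 with LPS. Of them 60.1% were above 0 and 3.26% were called higher in MARCO-/-.

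**Figure D3:**
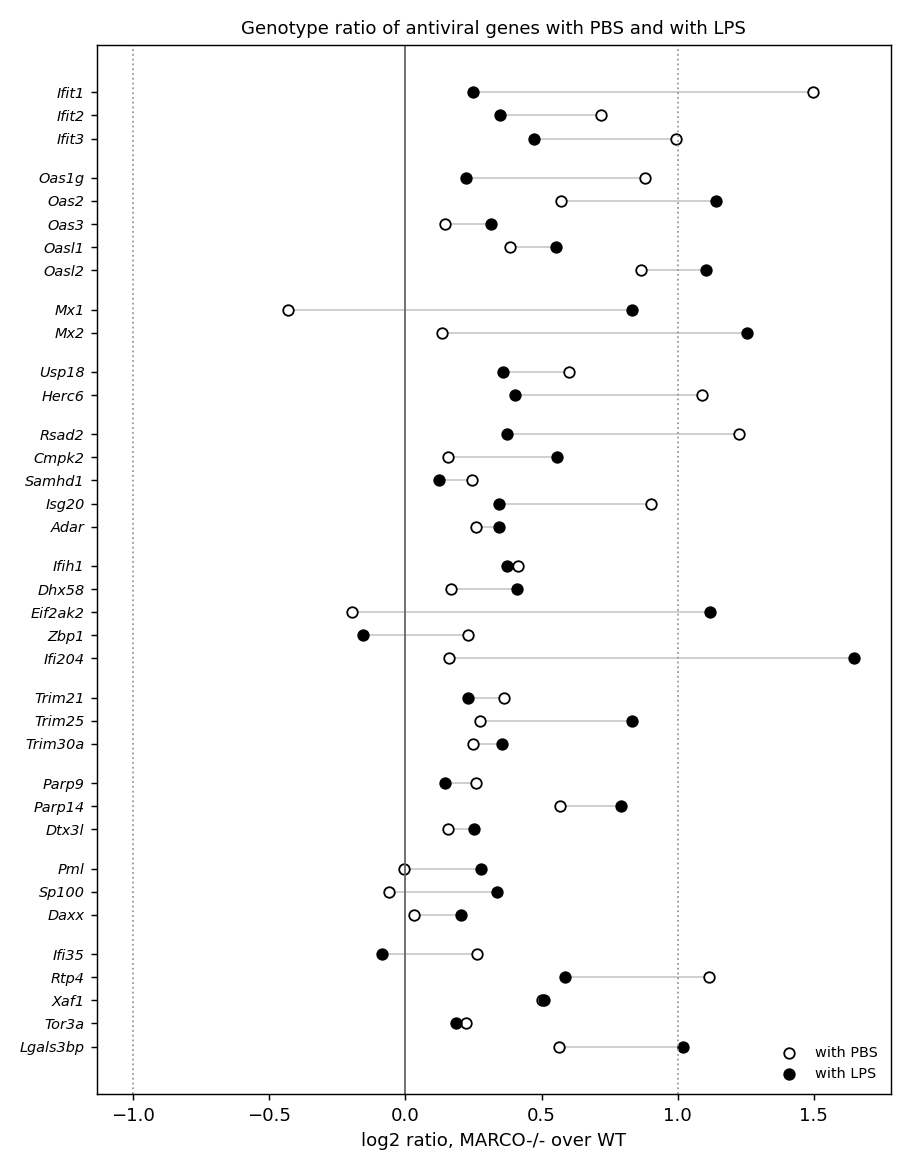
Log2 ratio of MARCO-/- over WT for the 36 measured genes, with open points for the PBS arrays and filled points for the LPS arrays, and dotted lines at 2-fold. The 4 open points past 1 belong to Ifit1, Herc6, Rsad2 and Rtp4 and the 6 filled ones to Oas2, Oasl2, Mx2, Eif2ak2, Ifi204 and Lgals3bp, so no gene passes 1 in both.

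None of these 10 genes was called in both conditions, while 30 of the 36 had ratios above 0 in both. Of all genes, 0.76% were called higher with PBS and 2.09% with LPS, and 51.5% and 48.5% were above 0. The shares of all genes called or above 0 in both conditions were not counted, so neither count has a background beside it. The 4 genes called with PBS were strong LPS responders, and their LPS arrays were under 2-fold apart, at a genotype ratio of 1.19 in Ifit1, 1.29 in Rsad2 and 1.32 in Herc6 and a log2 ratio of 0.59 in Rtp4. In the 6 called with LPS the PBS ratio ran from 0.87 in Eif2ak2 to 1.82 in Oasl2. The WT PBS array enters both the PBS comparison and the LPS response in WT, so the low WT PBS value of Ifit1 stands behind its large value in each. Of the genes given here by ratios alone (Adar, Ifih1, Trim25, Trim30a, Parp9, Dtx3l, Pml, Daxx, Ifi35 and Tor3a), the genotype log2 ratio lay between -0.01 and 0.42 with PBS and between -0.09 and 0.83 with LPS.

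Several of these calls sat close to the 2-fold mark and moved with the normalization. With quantile normalization the genes called with LPS went from 6 to 3, and with cyclic loess likewise to 3, while the share of all genes went from 2.09% to 1.36% and 1.41%. Oas2 and Lgals3bp fell under the mark with both methods, Eif2ak2 with quantile normalization (1.83-fold) and Oasl2 with cyclic loess (1.92-fold). Mx2 and Ifi204 stayed past it with both. With PBS, Ifit3 joined the 4 called genes under both methods, and averaging a gene's probe sets left 2, Ifit1 and Herc6. With 16 added to each intensity, which shrinks ratios of dim genes, 0 genes were called with PBS and only Oasl2 with LPS.

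**Figure D4:**
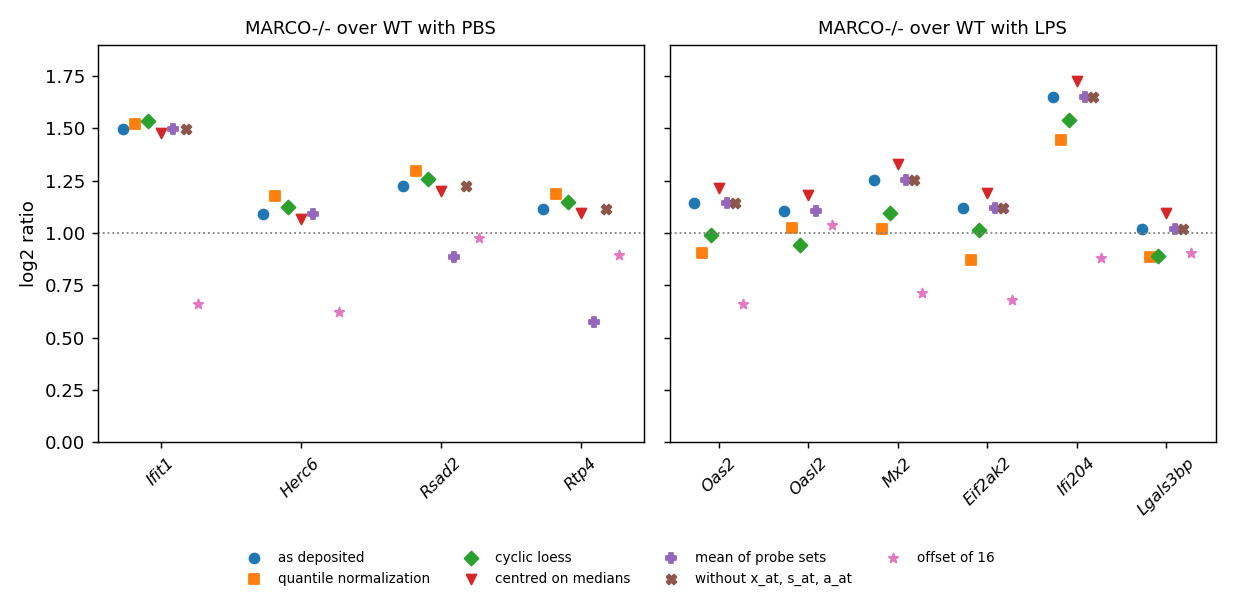
Log2 ratio of MARCO-/- over WT of the 10 called genes, with PBS (left) and with LPS (right), under the values as deposited and 6 other settings, each with its own mark (Herc6 and Oasl2 have no value without a_at probe sets). The dotted line is 2-fold; Ifi204 and Mx2 stay above it except with an offset of 16, and Oas2 and Lgals3bp cross it under 3 settings.

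The genes upstream of these were read from a list of 47 interferon ligands, receptors, kinases, transcription factors, adaptors and inhibitors, of which 37 had a value. Interferon beta mRNA was near background on all 4 arrays after overnight culture, and earlier times were not measured. Ifnb1 read 3.38 with WT PBS, 4.97 with WT LPS, 3.84 with MARCO-/- PBS and 3.22 with MARCO-/- LPS. The 5 measured interferon alpha genes lay between 2.08 and 4.38. Interferon gamma was above background, and Ifng fell from 43.7 to 16.8 with LPS in WT (2.61-fold) and from 30.1 to 9.42 in MARCO-/- (3.20-fold).

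Of the receptor chains, Ifnar1 read 63.4 with WT PBS, 65.4 with WT LPS, 63.5 with MARCO-/- PBS and 74.8 with MARCO-/- LPS, ratios of 1.03 and 1.18 with LPS. Ifnar2 fell from 255 to 125 in WT (2.04-fold lower) and went from 267 to 165 in MARCO-/-, 1.61-fold lower and under the mark, while its other probe sets stayed under 2-fold in WT too. Ifngr1, the ligand-binding chain for interferon gamma, was lower with LPS by 5.64-fold in WT and 5.08-fold in MARCO-/-. Ifngr2 read 179, 348, 191 and 189, so that its WT LPS array alone stood apart, at a MARCO-/- over WT ratio of 0.54 with LPS.

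In ISGF3, Stat2 rose from 35.6 to 151 in WT (4.24-fold) and from 47.6 to 172 in MARCO-/- (3.61-fold). Irf9 rose from 106 to 273 in WT (2.57-fold) and went from 154 to 230.4 in MARCO-/-, a ratio of 1.49. The kinases differed, Jak1 reading 609 with WT PBS, 458 with WT LPS, 555 with MARCO-/- PBS and 451 with MARCO-/- LPS, and Tyk2 reading 87.4, 157, 97.6 and 203. Irf7, itself an interferon-induced factor that sustains interferon transcription, rose 6.25-fold in WT and 7.99-fold in MARCO-/-. The receptor Tlr3, which senses double-stranded RNA in the endosome, went from 118 to 3.75 with LPS in WT and from 81.6 to 5.44 in MARCO-/-, down to background, so that its folds are not measured. Its other probe set, also at background with LPS, fell by 2.83 and 1.86 on the log2 scale. Socs1, an inhibitor of the interferon receptor's kinases, rose 3.05-fold and 7.64-fold.

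**Figure D5:**
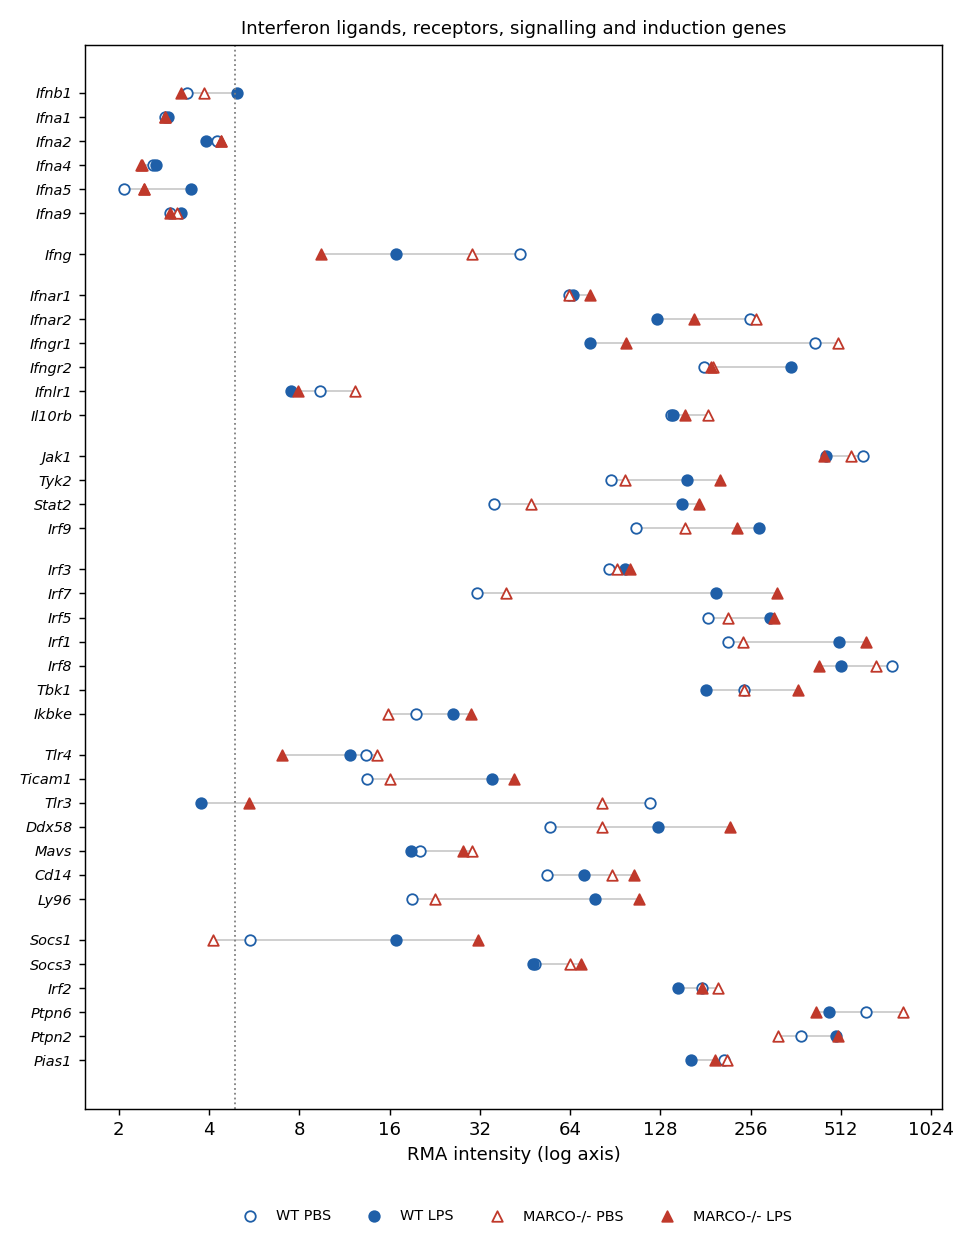
RMA intensity (log axis) on the 4 arrays of 37 genes of interferon ligands, receptors, signalling, induction and inhibition, with the same marks as for the antiviral genes (open for PBS, filled for LPS, circles for WT, triangles for MARCO-/-). The dotted line is the median of all intensities, and the interferon alpha and beta genes lie close to it or to its left, while Tlr3, Ifngr1, Ifng, Irf7 and Stat2 separate PBS from LPS.

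Over the whole pathway list 8 of 37 genes were higher and 4 lower with LPS in each genotype, where 6.2% of all genes were higher and 8.31% lower in WT and 6.32% and 5.98% in MARCO-/-. The 4 lower genes are thus a share near that of all genes in WT. Between genotypes with PBS, 0 of 37 passed 2-fold in either direction, and with LPS 1 did, a share near the 2.09% of all genes. This was Tbk1, the kinase that activates Irf3, at 244 with WT PBS, 181 with WT LPS, 243 with MARCO-/- PBS and 369.7 with MARCO-/- LPS. Its LPS arrays were 2.04-fold apart on this probe set and 2.12-fold on the other, and WT LPS was the lowest and MARCO-/- LPS the highest of the 4 in both.

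The arrays also differed in other cells' markers, whose part in the genotype ratios was not tested. Marco itself read 8.05 with WT PBS, 3.15 with WT LPS, 3.95 with MARCO-/- PBS and 4.25 with MARCO-/- LPS, near background throughout, so it does not check the genotype labels, and the position of its probes relative to the deleted part is unknown here. The 6 markers of all DC (Itgax, H2-Aa, H2-Ab1, Cd74, Flt3 and Zbtb46) summed to between 4677 and 12318, lower on the LPS arrays. H2-Aa, H2-Ab1 and Cd74 were the brightest of them on every array, so the sums mostly follow these. Itgax fell from 548 to 12.9 with LPS in WT (42.6-fold) and from 621 to 16.4 in MARCO-/- (37.9-fold). Zbtb46 alone was higher with LPS, at a ratio of 1.60 in WT and 2.61-fold in MARCO-/-. For plasmacytoid DC, which make much interferon, 6 of 8 markers had a value and summed to 533 and 463 on the WT arrays (PBS, then LPS) and to 403 and 488 on the MARCO-/- arrays, and 0 of the 6 passed 2-fold between genotypes. The 10 macrophage markers summed to 1639, 167, 2704 and 161 in that order, with 3 higher in MARCO-/- with PBS, and with LPS 2 higher and 4 lower. The 7 stromal markers summed to 39.1, 1779, 548 and 35.4, so that MARCO-/- was the higher genotype with PBS (5 of 7 markers) and the lower with LPS (6 of 7), and 4 of 4 muscle markers moved the same way, with sums of 20.1, 393, 152 and 19.0. Erythroid markers (3 of 4 with a value) summed to 4404 and 3985 in WT and to 6392 and 6829 in MARCO-/-, and nearly all of each sum was Hba-a1. Slc4a1 (5.74-fold) and Alas2 (2.17-fold) were higher in MARCO-/- with PBS, and Alas2 (3.52-fold) with LPS. Natural killer markers summed to 1332 and 405 in WT and to 1006 and 230.2 in MARCO-/-, and those of monocytes and neutrophils to 500.2 and 63.9 against 357 and 37.0. Among the latter, S100a9 was 4.34-fold lower in MARCO-/- with LPS, at 4.90, near background. Of the natural killer markers, Ncr1 was higher in MARCO-/- (2.87-fold with PBS, 2.73-fold with LPS), and Gzma (2.16-fold and 3.82-fold) and Gzmb (2.07-fold and 3.29-fold) were lower. The 5 measured markers of the other conventional DC, which carry Sirpa, summed to 607 and 238 in WT and to 589 and 318 in MARCO-/-, with Esam 2.10-fold higher and Mgl2 3.29-fold lower in MARCO-/- with PBS and Sirpa 2.06-fold higher with LPS. Among the measured markers of B cells, of T cells and of the conventional DC that carry Xcr1 and Clec9a, 0 passed 2-fold between genotypes.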

How the data were processed

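RNA of WT and MARCO-/- splenic DC cultured with PBS or LPS was hybridised to 4 single-colour Affymetrix arrays, named in the methods as Mouse Genome 430 2.0. The deposited values are intensities on a linear scale, which the authors made with RMAexpress (background correction, quantile normalization and probe set summary, in a version that is not given). Array medians of the deposited values ran from 4.72 to 4.98, so a further normalization could move ratios, and the number of arrays limits the precision.

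Of 45141 probe sets, 104 controls were left out. In the annotation supplied for the platform, 28898 of the other 45037 had exactly 1 symbol, 551 had several and 15588 were not listed. Each of 17097 genes took its brightest probe set by mean log2 intensity, 14 of the 36 measured genes having more than 1. Ratios were log2 differences with no offset, called at the 2-fold threshold of the study's methods, and no test was possible. Groups came from the sample labels. The scripts were tested on simulated data. Near-identical relatives (Oas1a and Oas1g, Trim30a and Trim30d, Ifi204 and its family) may share probes.

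The 39 genes, the pathway list, the markers and the motifs were chosen with earlier results of these data known. Values on all 4 arrays are given for genes past 2-fold between genotypes, past 4-fold with LPS, or under 2-fold with LPS in both genotypes, and ratios for the rest; of the other lists, the genes past 2-fold between genotypes and the receptor and ISGF3 genes are named, and any others were chosen after their values were seen. Alternatives were limma 3.58.1 quantile and cyclic loess normalization, median centring, other choices of probe set, a filter on dim genes, an offset of 16, and thresholds of 1.5-fold and 3-fold. Promoter windows and chromosomes came from RefSeq (GRCm38.p6), with 28 of 39 genes matched to a window. Python 3.11.15, numpy 2.4.6, pandas 2.3.3, matplotlib 3.10.9 and R 4.3.3 were used.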

Additional observations from a re-analysis of the deposited data

How the results depend on the processing

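Under the alternatives run, 21 to 34 genes were higher with LPS in WT (28 as deposited) and 24 to 35 in MARCO-/- (33), 0 were lower in any comparison, and the median genotype log2 ratio stayed above 0, at 0.24 to 0.34 with PBS and 0.27 to 0.44 with LPS. Leaving out probe sets with names in x_at, s_at or a_at kept 29 of the 36 genes. The count of genes higher in MARCO-/- with LPS (6, with 2.09% of all genes) was 3 with quantile normalization (1.36%), 3 with cyclic loess (1.41%), 1 with an offset of 16 (0.228%), 10 at 1.5-fold (8.76%) and 1 at 3-fold (0.246%). The count with PBS (4, with 0.76%) was 2 with the mean of all probe sets (0.597%), 0 with an offset of 16 (0.205%), 10 at 1.5-fold (2.62%) and 0 at 3-fold (0.328%). The median LPS log2 ratio in MARCO-/- (2.33) was 1.51 with an offset of 16, by construction, since the offset shrinks ratios of dim genes. The median difference of the LPS ratios (0.09) was -0.05 with quantile normalization and -0.03 with cyclic loess, so its sign turned with the normalization. The median LPS log2 ratio itself stayed larger in MARCO-/- than in WT under both methods. With the mean of all probe sets it was nearly equal between genotypes. Other causes were not tested. With WT PBS, 8 of the 36 genes read below 10, where ratios rest on signal near background. No paired analysis was possible because each condition had 1 array.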

Other observations

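A second list, of 43 other interferon-stimulated genes, had 35 with a value, and fewer of them passed 2-fold with LPS than in the antiviral list. In WT 18 were higher and 2 lower, with a median log2 ratio of 1.11, where 6.2% of all genes were higher and 8.31% lower. In MARCO-/- 21 were higher and 2 lower, with a median of 1.29, where 6.32% of all genes were higher and 5.98% lower, so the share of lower genes was near that of all genes. The 2 lower genes were Ifitm1 and Ifitm2 in both genotypes, membrane proteins that block viral fusion. Ifitm1 read 114 with WT PBS, 11.4 with WT LPS, 148 with MARCO-/- PBS and 37.2 with MARCO-/- LPS, so it fell by 3.32 on the log2 scale in WT and by 1.99 in MARCO-/-, and its LPS arrays were 3.27-fold apart with MARCO-/- the higher. Between genotypes with PBS, 0 of the 35 passed 2-fold and the median log2 ratio was 0.16. With LPS, 3 were higher in MARCO-/-, where 2.09% of all genes were, and 0 lower, with a median of 0.42.

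The other two were Oas1c and Ddx60. Ddx60, a helicase that acts with RIG-I, read 20.6 with WT PBS, 78.5 with WT LPS, 22.8 with MARCO-/- PBS and 164 with MARCO-/- LPS, 2.09-fold apart on the LPS arrays. Oas1c read 4.29, 4.29, 5.24 and 11.5 in the same order, 2.67-fold apart with LPS, from values near background. Ifi27l2a had the largest LPS ratio of this list in WT, from 134 to 1986 (14.8-fold), and rose from 219 to 1849 in MARCO-/- (8.45-fold).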
